A study of Mus musculus with 6 samples.

Results

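The Arp2/3 complex is the actin-branching machine of the cell, and the transcripts of its 9 subunit genes were described here in neutrophils of mouse bone marrow. The genes were chosen by name as subunits, *Actr2*, *Actr3*, *Arpc1a*, *Arpc1b*, *Arpc2*, *Arpc3*, *Arpc4*, *Arpc5* and *Arpc5l*, with expression results of these same libraries already known, and make up 9 of the 55401 genes in the deposited table. RNA of sorted CD45+ CD11b+ Ly6G+ cells was sequenced in 3 Lig libraries, of mice with silk tied around their molars for 14 days to induce periodontitis, and in 3 Ctrl libraries, of mice left without ligatures over the same time. All mice were wild type C57BL/6 males of 8 weeks, and each library was a pool of neutrophils of 5 mice, so that the spread between libraries is a spread between pools. No sham procedure is described for these controls, and effects of the procedure and of gum inflammation cannot be told apart. Levels are given as FPKM, the fragments of a gene scaled to the length of its exons and to the fragments of the library, and total counts per library were 50605309 to 61455112 on the deposited scale.

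A branched actin network pushes the leading edge of a crawling neutrophil forward and closes the cup around an ingested particle. The Arp2/3 complex makes such a network by binding to the side of an existing filament and starting a daughter filament there. In the assembled complex, 7 subunits sit together. Arp2 and Arp3, encoded by *Actr2* and *Actr3*, resemble actin and form the start of the new filament, ARPC2 and ARPC4 form the core that holds the mother filament, and ARPC1, ARPC3 and ARPC5 complete the assembly. The ARPC1 and ARPC5 positions can each be filled by either of a pair of paralogues, ARPC1A or ARPC1B and ARPC5 or ARPC5L. Loss of ARPC1B in people causes an immune deficiency with abnormal platelets, and blood cells depend on this paralogue.

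The markers of the labelled cell type were abundant. *S100a9* stood at 56800 ± 3160 FPKM in Lig and 45100 ± 3270 FPKM in Ctrl, and *Ly6g*, the gene of the sort, stood at 392 ± 18.2 FPKM in Lig and 331 ± 6.55 FPKM in Ctrl (SD, n = 3 each). Transcripts of other marrow cells were also present and differed between the groups. For the calls of markers below, edgeR called 3.96% of all tested genes higher and 6.43% lower in Lig. The FPKM summed over 12 erythroid markers ran from 401 to 514 in Lig and from 1330 to 1790 in Ctrl, with 10 of 11 tested markers called lower in Lig and none of the 12 at 0 in every library. For 11 B cell markers the sums were 158 to 176 in Lig and 286 to 347 in Ctrl, with 8 of 11 called lower. The sums of 15 neutrophil markers were 114000 to 124000 in Lig and 91900 to 102000 in Ctrl, with 7 called higher, and their median log2 fold change was 0.30. Most of these sums was *S100a8*, *S100a9* and *Ngp*, without which the other 12 summed to 21700 to 23300 in Lig and 18700 to 19800 in Ctrl. The early granule genes *Elane* and *Mpo* went the other way. Neither passed the threshold by edgeR or limma, but both were lower at an unadjusted p under 0.05 from edgeR and were called lower by DESeq2. *Elane* had 22.9, 36.1 and 32.7 FPKM in Lig and 43, 50.3 and 46 FPKM in Ctrl. *Mpo* had 32.9, 53.9 and 50.4 FPKM in Lig and 73.2, 76.2 and 76.7 FPKM in Ctrl. For monocytes the sums were 189 to 218 FPKM in Lig and 211 to 214 FPKM in Ctrl, but 73.7 to 82 FPKM in Lig and 93.5 to 95 FPKM in Ctrl without *Ly6c2*, and none of 6 tested markers was called by edgeR or limma (1 lower at an unadjusted p under 0.05 and 1 lower by DESeq2). For T and NK cells they were 13.5 to 16.5 FPKM in Lig and 21.8 to 23 FPKM in Ctrl, with 3 of 5 tested markers called lower. For 10 megakaryocyte and platelet markers they were 17.7 to 20.4 FPKM in Lig and 20.7 to 23.2 FPKM in Ctrl. Most of each sum was *Itgb3*, with 14.5, 15.3 and 15.2 FPKM in Lig and 14.6, 15.4 and 16.2 FPKM in Ctrl (log2 fold change 0.03 from edgeR). None of 2 tested markers of that list was called (none at an unadjusted p under 0.05, by DESeq2 or by limma). The part of these marker differences in the values of the Arp2/3 genes was not tested, and in pooled cells a change in the mix of cells and a change of RNA per cell cannot be told apart.

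The transcripts of the complex were abundant, with 1 exception. All 9 genes passed the filter of a mean of at least 1 FPKM, which left 9632 genes for testing, and 7 of them stood above the 90th percentile of these genes and 6 above the 95th percentile. Summed over the 9 genes, the level was 1273, 1379 and 1362 FPKM in the Lig libraries and 1099, 1194 and 1137 FPKM in the Ctrl libraries. Every Lig sum therefore lay above every Ctrl sum. The genes took 0.395% to 0.512% of all counts in a library. Their means over the 6 libraries spanned a 116-fold range. In Lig the order of means was *Arpc2*, *Actr3*, *Arpc5*, *Arpc1b*, *Arpc3*, *Actr2*, *Arpc4*, *Arpc1a* and *Arpc5l*, where the library ranges of *Actr3* and *Arpc5*, of *Arpc5* and *Arpc1b* and of *Arpc3* and *Actr2* overlapped and those of all other neighbours were apart. In Ctrl the order was the same except that *Arpc5*, with a mean of 166.3 FPKM, stood above *Actr3*, with 147.8 FPKM, and their ranges did not overlap. There the ranges of *Actr3* and *Arpc1b* and of *Arpc3* and *Actr2* overlapped, and those of all other neighbours were apart.

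**Figure D1:**
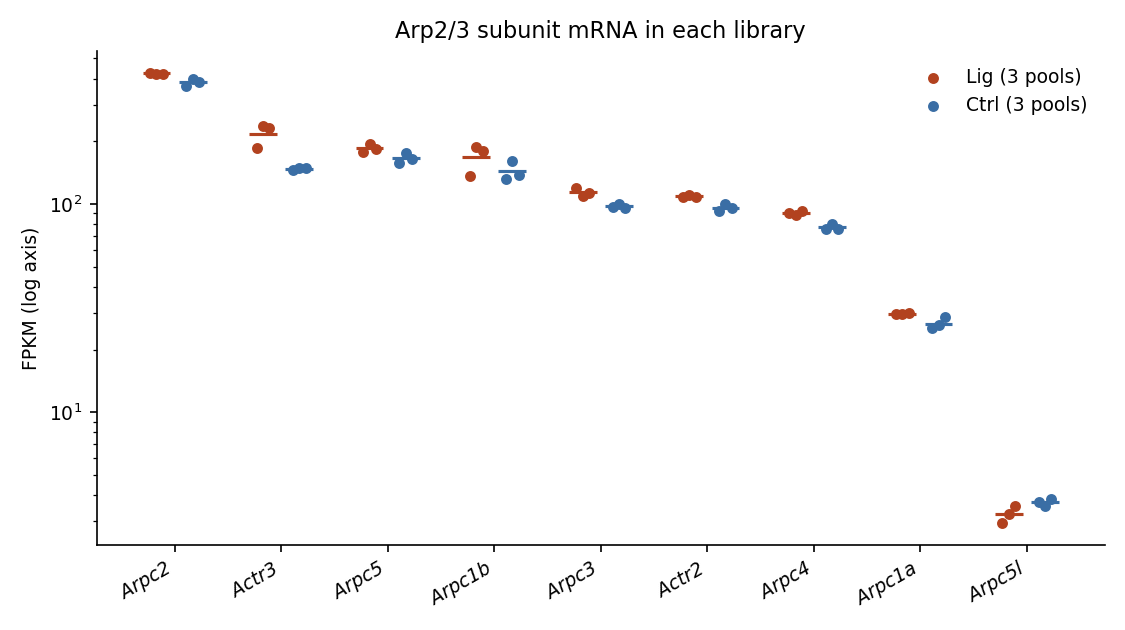
FPKM of the 9 Arp2/3 subunit genes on a log axis, ordered by the mean over the 6 libraries, with a point for each library, a line at the group mean, Lig in red on the left and Ctrl in blue on the right of each gene. *Arpc2* stood highest, with Lig libraries from 422.6 to 424.2 FPKM and Ctrl libraries from 369.2 to 398.8 FPKM, and *Arpc5l* lowest, below 4 FPKM in every library.

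The order depended in part on the length behind the FPKM. For 98% to 98.3% of genes with at least 5 FPKM in a library, the deposited count and FPKM fitted, within 1%, a length equal to all exons of a gene merged over its transcripts in GENCODE M21. For *Arpc3* that merged length was 2762 nt, against 899 nt for its longest protein-coding transcript, and for *Arpc5l* it was 4498 nt, against 1339 nt. When the levels were rescaled to the longest protein-coding transcript, *Arpc3* moved from position 5 to position 3 in Lig, with a mean of 348.6 rescaled FPKM beside 393 for *Actr3*, and to position 2 in Ctrl, with 299.9 beside 266.9 for *Actr3*. *Arpc5l* stayed at position 9 in both groups. The comparison of a gene between groups is not affected by this length, since it is the same in every library.

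Between the groups, 8 of the 9 genes had a higher estimate in Lig. From edgeR's quasi-likelihood test with Benjamini-Hochberg adjustment over all tested genes, *Actr2*, *Actr3*, *Arpc2*, *Arpc3* and *Arpc4* were called higher in Lig, that is 5 of 9, and none was called lower (also none at an unadjusted p under 0.05, by DESeq2 or by limma), at a background of 3.96% of tested genes called higher and 6.43% called lower. For 7 of the 9 genes all Lig libraries lay above all Ctrl libraries in FPKM, a state shared by 9.9% of tested genes, and for none did they lie below, as they did for 24.9% of tested genes. Fold changes here are edgeR estimates from counts scaled with TMM normalisation factors, not ratios of the FPKM printed. On log2(FPKM + 1) with limma they were lower, such as 0.55 for *Actr3* against 0.63 from edgeR, and 0.22 for *Arpc4* against 0.30. The median log2 fold change of Lig over Ctrl from edgeR was 0.25 over the 9 genes and -0.001 over all genes tested. Since the genes were chosen with this comparison known, these counts describe them and support nothing further. *Arpc2* lay just inside the threshold of 0.05, with an adjusted p of 0.0456 from edgeR, and *Arpc1a* just outside it, with 0.0619.

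The count of called subunits moved with single libraries and with the scaling, while every estimate kept its sign. *Actr3* was the 1 subunit called without Lig replicate 1, without Lig replicate 3, without Ctrl replicate 1 and without Ctrl replicate 3. Without Lig replicate 2 there were 3 called, *Actr3*, *Arpc3* and *Arpc4*, and without Ctrl replicate 2 there were 6. DESeq2 on all 6 libraries called 7. With library size as the only scaling 3 were called, and with FPKM rescaled to TPM, where the median of all tested genes was -0.144, 1 was called and the median of the 9 genes was 0.10. On that scale 5 of the 9 genes, *Actr2*, *Actr3*, *Arpc2*, *Arpc3* and *Arpc4*, had every Lig library above every Ctrl library, beside 4.85% of tested genes, and the FPKM of a library summed to more in Lig than in Ctrl, within 334000 to 362000 overall.

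**Figure D2:**
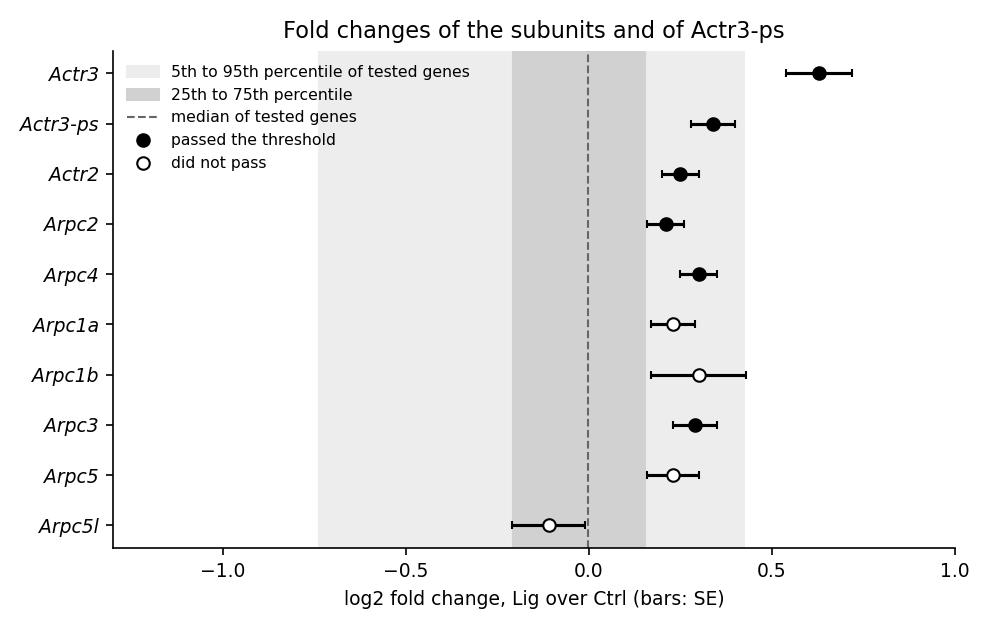
Log2 fold change of Lig over Ctrl with its SE for the 9 subunit genes and the pseudogene *Actr3-ps*, filled where the edgeR threshold was passed, over bands for the percentiles of all tested genes (5th at -0.74, 25th at -0.21, 75th at 0.15, 95th at 0.42). *Actr3* lies past the 95th percentile at 0.63, a group from 0.21 to 0.30 lies above the 75th percentile, and *Arpc5l* lies below 0.

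*Actr3* encodes Arp3, the larger of the pair of actin-related proteins in the complex. Its level was 185.4, 236.6 and 231.1 FPKM in the Lig libraries and 146.2, 148.7 and 148.6 FPKM in the Ctrl libraries. The groups did not overlap, and the Ctrl libraries lay within 1.67% of each other while Lig replicate 1 stood well below the other Lig libraries. The log2 fold change from edgeR was 0.63 ± 0.09 (SE), or 1.55-fold. It ranged from 0.57 to 0.73 when single libraries were left out. The gene lies on the minus strand of chromosome 1 at 125392905 to 125435727 in GRCm38.

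*Actr2* encodes Arp2, the partner of Arp3 in the new filament. It stood at 108.3, 110.1 and 107.5 FPKM in Lig and 92.39, 99.94 and 95.84 FPKM in Ctrl, apart but closer than *Actr3*, with a log2 fold change of 0.25 ± 0.05 (SE). The ratio of *Actr3* to *Actr2* FPKM was 1.711, 2.149 and 2.149 in Lig and 1.583, 1.487 and 1.551 in Ctrl. In all 6 libraries more *Actr3* than *Actr2* was measured, and the ratio was above every Ctrl value in each Lig library.

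A processed pseudogene, *Actr3-ps* on chromosome X at 81820384 to 81822730, is a near copy of the *Actr3* mRNA and also had counts. Its level was 29.76, 33.5 and 32.48 FPKM in Lig and 26.43, 26.79 and 26.54 FPKM in Ctrl, again with Lig replicate 1 the lowest of its group, and the log2 fold change was 0.34 ± 0.06 (SE). Over 2348 aligned positions of the GENCODE M21 transcripts, 98.76% were identical with 26 mismatches, and the longest identical run was 199 nt, longer than a read of 150 nt. The stretch below, bases 879 to 938 of the *Actr3* coding sequence, is shown because it carries 3 of the 15 differences in the coding part, which are in capitals.
Actr3: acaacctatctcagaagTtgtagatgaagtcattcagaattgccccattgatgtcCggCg
Actr3-ps: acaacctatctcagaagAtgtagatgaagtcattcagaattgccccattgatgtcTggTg
A read from between such differences can be placed at either locus, and how the authors placed reads with more than 1 position is not given in the sources used here. *Actr3-ps* took 13.8%, 12.4% and 12.3% of the FPKM of both loci in Lig and 15.3%, 15.3% and 15.2% in Ctrl. With the counts of both loci summed before the fit, the log2 fold change was 0.61. *Actr3b*, the intact paralogue of *Actr3*, was listed at 0 in all 3 Lig libraries and had 16, 6 and 0 counts in Ctrl, which placed it under the filter.

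*Arpc2* and *Arpc4* encode the core that contacts the mother filament. *Arpc2* had 424.2, 422.6 and 422.7 FPKM in Lig and 369.2, 398.8 and 386.7 FPKM in Ctrl, the highest level of any subunit gene and rank 90 among the 9632 genes tested. The 3 Lig libraries differed by 0.379%, and all of them lay above Ctrl, with a log2 fold change of 0.21 ± 0.05 (SE). *Arpc4* had 90.34, 88.37 and 92.75 FPKM in Lig and 76.18, 80.15 and 76.01 FPKM in Ctrl. The groups did not overlap, and the log2 fold change from edgeR was 0.30 ± 0.05 (SE). The deposited coordinates of *Arpc4* overlap those of *Ttll3* on the same strand over 1189 nt, and *Ttll3* reached 8.49 FPKM at most.

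*Arpc3* encodes a small subunit that contacts Arp3. Its level was 118.7, 108.9 and 112.8 FPKM in Lig and 96.6, 100.2 and 96.1 FPKM in Ctrl, with a log2 fold change of 0.29 ± 0.06 (SE). The Lig libraries were apart from the Ctrl libraries, and here Lig replicate 1 was the highest of its group, the reverse of its place for *Actr3*.

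At the ARPC1 position, *Arpc1b* was the major paralogue. It had 135.7, 186.7 and 178.9 FPKM in Lig and 131.7, 160.7 and 137 FPKM in Ctrl, and Lig replicate 1 lay within the Ctrl range. The log2 fold change of 0.30 ± 0.13 (SE) had the largest SE of the 9 genes and did not pass the threshold. *Arpc1a* had 29.69, 29.52 and 30.04 FPKM in Lig and 25.29, 26.16 and 28.49 FPKM in Ctrl, which did not overlap. Its log2 fold change of 0.23 ± 0.06 (SE) did not pass by edgeR or limma either, but was called by DESeq2 (adjusted p = 0.0252). *Arpc1b* took 82.1%, 86.3% and 85.6% of the FPKM of the pair in Lig and 83.9%, 86% and 82.8% in Ctrl. The ranges overlapped, and the difference of 0.447 percentage points changed sign when Lig replicate 2 (-0.389), Lig replicate 3 (-0.0274) or Ctrl replicate 3 (-0.274) was left out. The genes are neighbours on the plus strand of chromosome 5, *Arpc1a* at 145083830 to 145108761, where it overlaps *Kpna7*, listed at 0, and *Arpc1b* at 145114215 to 145130705, and their coding sequences are 72.73% identical with no identical run longer than 21 nt. *Arpc1b* overlaps *Pdap1* of the opposite strand in 1937 nt, and whether the libraries keep strand is not given in the sources used here, although *Pdap1* had no more than 5.14 FPKM.

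At the ARPC5 position, *Arpc5* supplied nearly all transcripts. It had 177.7, 193.3 and 183.1 FPKM in Lig and 157.9, 176.2 and 164.7 FPKM in Ctrl, without overlap. The log2 fold change from edgeR was 0.23 ± 0.07 (SE). The gene did not pass the threshold by edgeR or limma, but was called by DESeq2 (adjusted p = 0.0291). *Arpc5l* was the only subunit gene with a lower estimate, at 2.95, 3.24 and 3.56 FPKM in Lig and 3.69, 3.54 and 3.84 FPKM in Ctrl. The ranges overlapped at Lig replicate 3, and the log2 fold change of -0.11 ± 0.10 (SE) was close to its own error. *Arpc5l* made up 1.63%, 1.65% and 1.91% of the pair in Lig and 2.28%, 1.97% and 2.28% in Ctrl. All Lig shares were below all Ctrl shares. The size of the share depends on the length used, being 4.73% ± 0.408 in Lig and 5.91% ± 0.471 in Ctrl with the longest protein-coding transcripts, and 3.37% ± 0.296 in Lig and 4.22% ± 0.341 in Ctrl in counts (SD, n = 3 each). *Arpc5l* overlaps *Rpl35* of the opposite strand over 277 nt, a ribosomal protein gene with 34.16 to 56.83 FPKM, far above *Arpc5l*. As strandedness is not given, *Rpl35* reads may be counted in *Arpc5l* and its share, and this was not tested. *Arpc5l* also overlaps *Wdr38* of its own strand, which had no more than 0.09 FPKM.

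The complex needs its positions in equal number, which transcript levels need not follow. Set as a share of the FPKM summed over all positions, Arp3 took 14.6%, 17.2% and 17% in Lig and 13.3%, 12.4% and 13.1% in Ctrl. It was the only position whose share was higher in every Lig library than in every Ctrl library, by 3.29 percentage points in the mean, and by 3.60 with lengths of the longest protein-coding transcripts. ARPC2 took 33.3%, 30.6% and 31% in Lig and 33.6%, 33.4% and 34% in Ctrl, and ARPC5 with both paralogues 14.2%, 14.3% and 13.7% in Lig and 14.7%, 15.1% and 14.8% in Ctrl. Both of these lay lower in Lig without overlap. The shares of Arp2, ARPC1, ARPC3 and ARPC4 overlapped between the groups. As shares sum to a fixed whole, a higher share of Arp3 lowers the others.

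**Figure D3:**
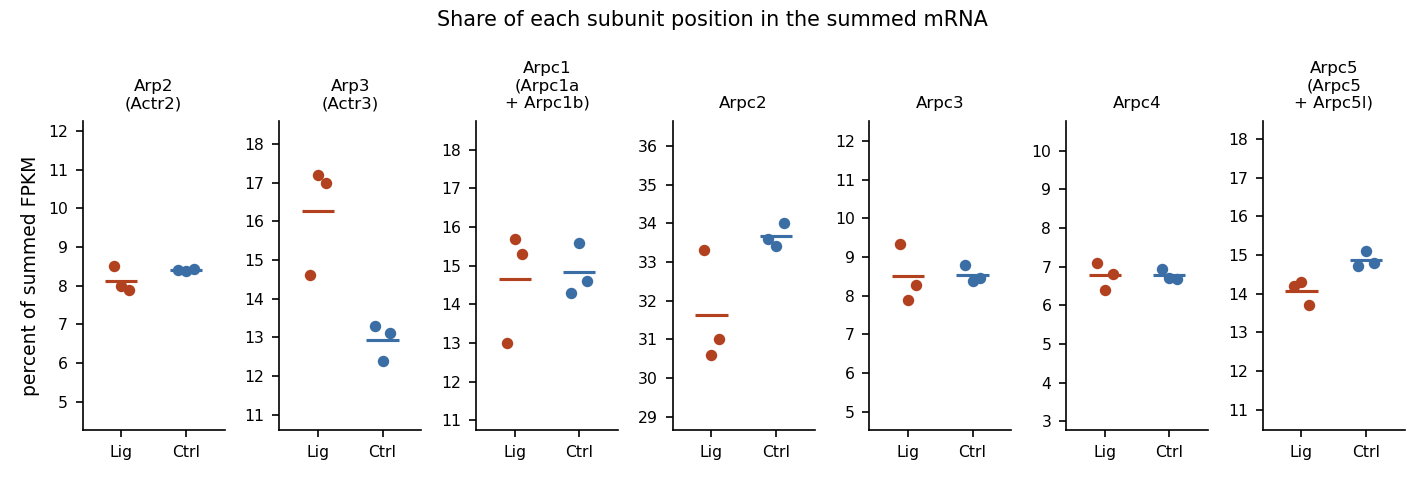
Share of each of the 7 subunit positions in the FPKM summed over the 9 genes, in percent, with a point for each library, a line at the group mean and Lig left of Ctrl; every panel spans the same number of percentage points but starts at its own value. Arp3 averaged 16.2% ± 1.44 in Lig and 12.9% ± 0.441 in Ctrl (SD, n = 3 each), and the means of ARPC2 were 31.7% ± 1.45 in Lig and 33.7% ± 0.31 in Ctrl.

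The subunit genes also varied within the groups. Over the 6 libraries, the 28 pairs among the 8 genes other than *Arpc5l* had correlations from 0.539 to 0.994 with a median of 0.894. These were taken in log2 CPM, counts scaled to library size times the TMM normalisation factor of each library. The difference between the groups enters this description. With the group means removed the same pairs ran from -0.651 to 0.969 with a median of 0.474. *Actr2* and *Arpc2* stayed closest together at 0.969, and *Actr3* was closest to *Arpc1b* at 0.895, both genes being low in Lig replicate 1. *Actr3* and *Arpc3* had the lowest value, -0.651. All these values share the same 6 libraries and their depth, and no test was made of them. The mean log2 CPM of the 9 genes was 8.337, 8.425 and 8.434 in Lig and 8.071, 8.208 and 8.144 in Ctrl.

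**Figure D4:**
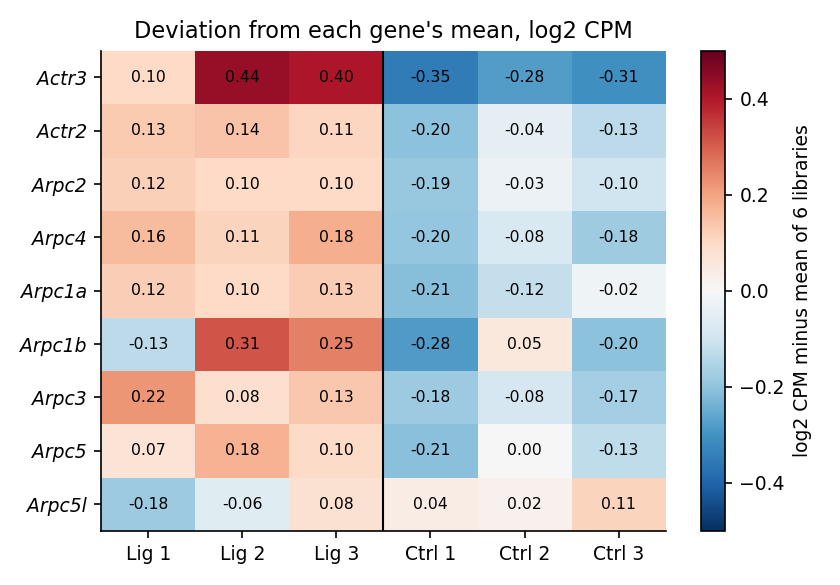
Log2 CPM of each subunit gene in each library minus the mean of that gene over the 6 libraries, in red where above and blue where below, with Lig left of the line and Ctrl right of it. Lig replicate 1 departs from the other Lig libraries for *Actr3* (0.10, against 0.44 and 0.40) and *Arpc1b* (-0.13, against 0.31 and 0.25), and *Arpc5l* shows no common direction in Lig.

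The genes whose pattern over the 6 libraries was most like the mean of the 9 subunit genes were *Mbd2*, a reader of methylated DNA (Pearson r = 0.998), *Itgb2l*, a leukocyte integrin beta chain (0.997), *Cyfip2*, a subunit of the WAVE complex that activates Arp2/3 (0.996), *Atp6v1d*, a subunit of the vacuolar proton pump (0.993), and *Scp2*, a sterol carrier (0.992). These values are a description over 6 libraries of 2 groups, and 370 of 4389 genes, or 8.43%, reached 0.9, counted among genes with a mean of at least 5 FPKM without the subunits, predicted genes and pseudogenes. *Cyfip2* had 119 ± 4.56 FPKM in Lig and 109 ± 1.89 FPKM in Ctrl (SD, n = 3 each), at a log2 fold change of 0.21.

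The Arp2/3 complex is idle until an activator of the WASP or WAVE family binds it, and other proteins stabilise or take apart its branches. Of 54 genes in 8 lists of such partners, 41 were tested, 4 were called higher and 2 lower by edgeR, beside the 3.96% and 6.43% of all tested genes, and their median log2 fold change was 0.14. In the WAVE complex, which couples Rac to Arp2/3, *Cyfip2* rose (log2 fold change 0.21 ± 0.05 (SE), adjusted p = 0.0396 from edgeR), 1 of 7 tested, and the list had a median of 0.15. *Wasf1* and *Wasf3* were listed at 0 in every library, and *Wasf2* was the WAVE gene of these cells with 49.9 ± 1.68 FPKM in Lig and 47.8 ± 0.972 FPKM in Ctrl (SD, n = 3 each). Among WASP family genes and their WIP partners none of 6 rose (none at an unadjusted p under 0.05, by DESeq2 or by limma) and 1 fell, with a median of 0.01. *Was*, the activator of blood cells, had 102 ± 4.89 FPKM in Lig and 99.4 ± 0.874 FPKM in Ctrl (SD, n = 3 each), which did not pass the threshold. *Wipf1*, which encodes its partner WIP, had 46.3 ± 0.852 FPKM in Lig and 50.3 ± 1.54 FPKM in Ctrl (SD, n = 3 each). It did not pass either, with a log2 fold change of -0.05 ± 0.05 (SE) from edgeR. The gene that fell was *Jmy*, an actin nucleator that also acts with p53, with 1.18, 0.93 and 0.88 FPKM in Lig and 1.67, 2.27 and 2.04 FPKM in Ctrl (log2 fold change -0.93 ± 0.17 (SE), adjusted p = 0.0201 from edgeR).

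Upstream of the activators, *Rac2*, the Rac GTPase of blood cells, had 575, 548 and 590 FPKM in Lig and 507, 500 and 525 FPKM in Ctrl and rose (log2 fold change 0.24 ± 0.05 (SE), adjusted p = 0.0252 from edgeR). *Baiap2*, which encodes the membrane-bending adaptor IRSp53, fell to 1.97 ± 0.146 FPKM in Lig, against 3.16 ± 0.335 FPKM in Ctrl (SD, n = 3 each; adjusted p = 0.0301 from edgeR). These were 2 of 10 tested genes of the list, with a median of 0.12. *Hcls1*, which encodes the branch-stabilising cortactin relative of blood cells HS1, rose to 331 ± 6.59 FPKM in Lig, against 303 ± 6.44 FPKM in Ctrl (SD, n = 3 each; adjusted p = 0.0404 from edgeR), while *Cttn*, which encodes cortactin itself, was under the filter at no more than 0.32 FPKM. Among 7 tested genes of branch disassembly and inhibition 1 rose, *Gmfg*, which encodes a debranching factor, with 105, 97.2 and 105 FPKM in Lig and 92.9, 92.2 and 82.1 FPKM in Ctrl (log2 fold change 0.28 ± 0.07 (SE), adjusted p = 0.0456 from edgeR). The list had a median of 0.08, and *Coro1a*, the most abundant coronin, had 669 ± 30.3 FPKM in Lig and 625 ± 13.7 FPKM in Ctrl (SD, n = 3 each), which did not pass the threshold.

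None of the 4 tested genes of the WASH complex, which drives Arp2/3 on endosomes, passed the threshold in either direction (none at an unadjusted p under 0.05, by DESeq2 or by limma), with a median of 0.07. Its most abundant genes were *Washc2*, with 26.3 ± 0.994 FPKM in Lig and 26.9 ± 0.908 FPKM in Ctrl, and *Washc1*, with 9.08 ± 0.352 FPKM in Lig and 8.94 ± 0.0586 FPKM in Ctrl (SD, n = 3 each). For actin and its barbed-end capping proteins, none of 6 passed (4 at an unadjusted p under 0.05, 1 by DESeq2 and 0 by limma) and all 6 estimates were positive, with a median of 0.19. *Actb*, the substrate of the complex, had 1490, 1140 and 1530 FPKM in Lig and 1250, 1210 and 1280 FPKM in Ctrl. Lig replicate 2 lay below every Ctrl library and the other Lig libraries above the highest of them. *Actg1*, the other cytoplasmic actin, had 821 ± 35.3 FPKM in Lig and 782 ± 19.3 FPKM in Ctrl (SD, n = 3 each). Actin-related proteins outside the complex, of dynactin and of chromatin remodellers, served as relatives with other tasks. Of 7 tested, 1 rose, *Actr10* of the dynactin pointed end, with 3.93, 4.22 and 4.04 FPKM in Lig and 3.15, 3.18 and 3.3 FPKM in Ctrl, and the median was 0.14. The calls among the partners were few and unstable, with none called higher without Lig replicate 1, Lig replicate 3, Ctrl replicate 1 or Ctrl replicate 3, 2 called higher without Lig replicate 2 or without Ctrl replicate 2, and 10 called higher by DESeq2. None was called higher with TPM, where the log2 fold changes were 0.08 for *Rac2*, 0.05 for *Cyfip2*, 0.05 for *Hcls1* and 0.13 for *Gmfg*. With FPKM rescaled to TPM, the median of the 41 partners was -0.02, beside -0.144 for all tested genes, and the medians of the WASP (-0.13), WASH (-0.08), GTPase (-0.03) and disassembly (-0.08) lists and of the other actin-related proteins (-0.06) turned negative, as did the WASP (-0.07), WASH (-0.01) and disassembly (-0.01) medians with library size only and the WASP median (-0.02) with upper-quartile factors. Of the 6 genes of actin and capping, 4 estimates were then positive with TPM, and that of *Actg1* was -0.01.

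**Figure D5:**
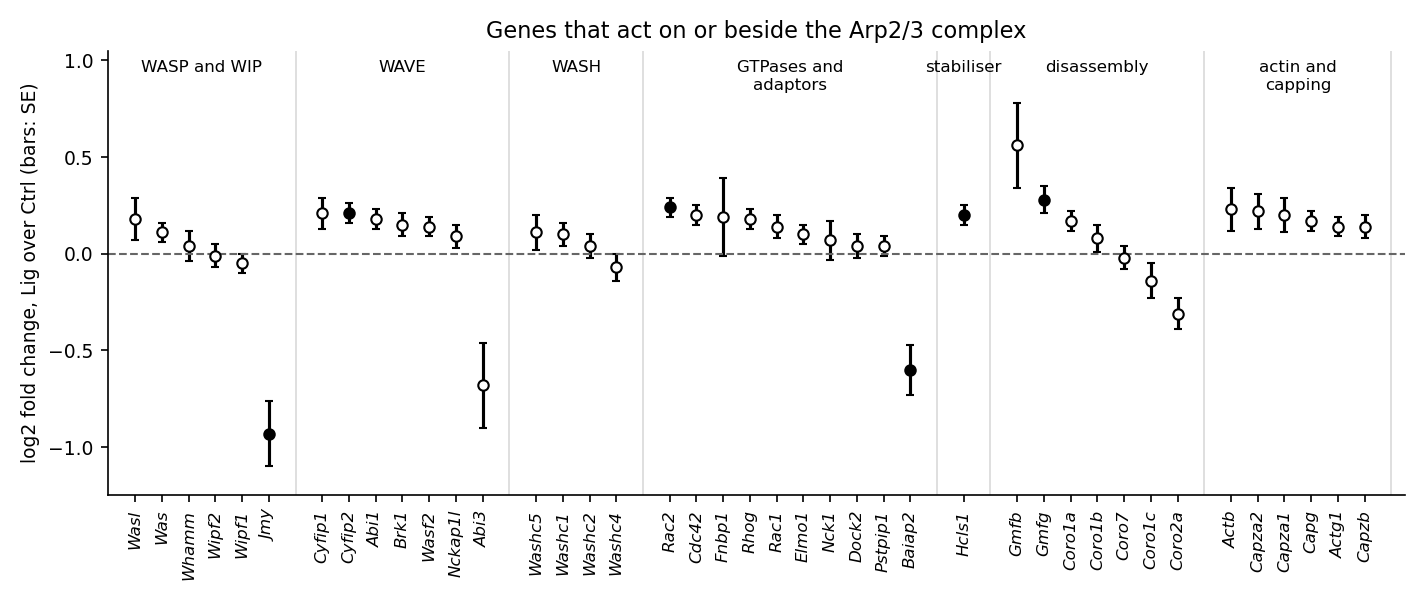
Log2 fold change of Lig over Ctrl with its SE for the 41 tested partner genes, grouped by list and filled where the edgeR threshold was passed, with a dashed line at the median of all tested genes. Most points lie between 0 and 0.30, and *Jmy* (-0.93), *Abi3* (-0.68) and *Baiap2* (-0.60) lie lowest, of which *Abi3* did not pass.

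The promoters of the subunit genes were read for what they share in sequence, which the choice of the genes did not use. RefSeq windows of 250 bases before and 50 bases after the start (GRCm38.p6) were found for 8 of the 9 genes. Of 7 motifs searched on both strands after the promoters had been looked at, the ETS core CCGGAAGT, the letters bound by ETS-family factors, was found in 5 of 8 windows, against 3.89% of 32851 promoters and 9.16% of the 8330 promoters of tested genes. The windows are shown because the core lies near the start in each. They are printed on the strand of the gene with the core in capitals, which reads ACTTCCGG where it lies on the opposite strand, and those of *Actr3* (chr1:125435728-125435761, minus strand), *Arpc3* (chr5:122391841-122391877, plus strand), *Arpc1a* (chr5:145083817-145083868, plus strand) and *Arpc4* (chr6:113378075-113378112, plus strand) end at the base before the start, while that of *Actr2* (chr11:20112925-20112954, minus strand) lies around the core.
Actr3: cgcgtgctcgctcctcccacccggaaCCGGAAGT
Arpc3: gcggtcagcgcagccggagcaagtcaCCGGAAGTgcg
Arpc1a: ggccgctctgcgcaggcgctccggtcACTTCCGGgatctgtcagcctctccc
Arpc4: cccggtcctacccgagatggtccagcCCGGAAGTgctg
Actr2: gccgggcggggACTTCCGGtttgggcggag
From the RefSeq start, the core spans bases -8 to -1 in *Actr3*, -11 to -4 in *Arpc3* and -12 to -5 in *Arpc4*. It spans -26 to -19 in *Arpc1a* and 9 to 16 in *Actr2*. Deposited gene starts differ from these for some genes. That of *Arpc1a* is 145083830, which puts its core inside the gene. That of *Actr2* is 20112913, which puts its core before the start. The deposited *Arpc2* starts at 74236084, so that its whole window (74236267 to 74236566) lies inside the gene. Of the 5 genes that hold the core, *Actr3*, *Arpc3*, *Arpc4* and *Actr2* were called higher in Lig and *Arpc1a* was not. Of those without the core, *Arpc2* was called higher and *Arpc1b* and *Arpc5* were not. These are calls by edgeR, which moved with single libraries and with the program, and a link between the core and the calls was not tested.

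Among the other motifs, the GC box GGGCGG was in 6 of 8 windows, against 63% of the promoters of tested genes and 35.7% of all. The NRF1 core GCGCATGC was in 3, *Arpc2*, *Actr3* and *Arpc3*, against 5.23% and 2.71%. CCAAT was in *Arpc5* and *Actr2*, against 37.3% and 37.4%, and the CArG box bound by serum response factor was in *Arpc4* alone, against 1.27% and 1.63%. TATAAA, found in 7.33% and 13.6%, and the interferon-stimulated response element, found in 3.45% and 3.44%, were in none of the 8 windows. The windows held 52.7% to 73.7% G and C, beside a median of 61% for promoters of tested genes and 52.7% for all, and its part in the motif counts was not tested. A match is a match of letters only, and no binding was measured here.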

How the data were processed

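Paired-end RNA-seq of sorted bone marrow neutrophils was analysed in 3 Lig and 3 Ctrl libraries, grouped from the labels. Per the labels, the authors trimmed reads with cutadapt 1.9, checked them with FastQC and used GRCm38; aligner, counting program and strandedness were not given in the sources used here. Both FPKM and expected counts were deposited by the authors in a common table. The deposited expected counts were whole numbers, of which 40.2% to 41.3% of values from 1 to 16 were multiples of 4 (25% for an even spread). How many counts stand for a read pair is not given in the sources used here, and most low values were not multiples of 4. If it were 4 counts per pair, the totals would be 12.7 to 15.4 M pairs per library.

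The 9632 genes whose mean FPKM reached 1 were tested with edgeR 4.0.16 in R 4.3.3 (TMM factors 0.968 to 0.976 in Lig and 1.01 to 1.05 in Ctrl, quasi-likelihood F-test, 2-sided, 1 coefficient for the group, Benjamini-Hochberg adjustment, threshold 0.05). Limma 3.58.1 on log2(FPKM + 1) and DESeq2 1.42.0 were alternatives, beside other scalings, filters, a replicate block and leaving out each library. The fit was tested on simulated data. These had less spread between libraries of a group than was estimated here over all genes, and changes larger than those of most subunits. The subunit genes and all lists were chosen with earlier results of these data known. Named were all subunits, called partners (at most 3 per list, otherwise the 2 most abundant), the 5 genes most alike, and overlapping genes or copies. *Abi3*, *Coro1a*, *Cttn*, *Elane*, *Itgb3*, *Ly6c2*, *Ly6g*, *Mpo*, *Ngp*, *S100a8*, *S100a9*, *Was*, *Wasf1*, *Wasf2*, *Wasf3* and *Wipf1* lie outside this rule and were named after their values were seen. Coordinates were checked against GENCODE M21, in which 55141 of 55401 identifiers were found.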

Additional observations from a re-analysis of the deposited data

How the results depend on the processing

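Each subunit gene kept the sign of its estimate under every alternative that tested it; *Arpc5l* was under the filter of 5 FPKM. *Actr3* passed the threshold under every alternative except the replicate block (adjusted p 0.0529). The number of subunits called higher (5) became 7 with DESeq2 and 4 with upper-quartile factors, without a filter or with a 5 FPKM filter. It became 3 with limma on log2(FPKM + 1), with a pseudocount of 0.1 and with library size only, and 1 with TPM. With the replicate block it became 0, and it was 1 to 6 when 1 library was left out. Under limma with either pseudocount, library size only and TPM, the subunits' median of 0.25 became 0.18, 0.18, 0.17 and 0.10. The median of all tested genes moved there to -0.063, -0.076, -0.083 and -0.144. Over all genes, the calls higher (381) and lower (619) became 165 and 699 with limma, 165 and 691 with the pseudocount of 0.1, 744 and 997 with DESeq2, 168 and 917 with library size only, 97 and 1232 with TPM, 257 and 410 without a filter, 228 and 376 with a filter of 5 FPKM, 16 and 38 with the replicate block, and 83 to 249 and 195 to 445 when 1 library was left out. Partner genes called higher (4) became 0 with limma on either pseudocount, library size only, TPM or the block, 1 with upper-quartile factors, no filter or the filter of 5 FPKM, 10 with DESeq2, and 0 to 2 without 1 library; those called lower (2) became 4 with DESeq2 or TPM, 1 without a filter, 0 with the filter of 5 FPKM or the block, and 0 to 2 without 1 library. The difference in the *Arpc5l* share of -0.448 percentage points was -0.854 in counts and -1.18 with the longest protein-coding transcripts. The cause of these shifts was not tested, other than that leaving out a library lowers the number of samples. Replicate numbers are shared between the groups, and deviations of same-numbered libraries correlated at -0.0561, -0.0981 and 0.0333. These values cannot tell whether same-numbered pools were handled together. How the pools were numbered is not given in the sources used here. *Arpc5l* had the lowest depth of the 9 genes (837 to 1165 counts), though *Arpc1b*, with 42028 to 61680 counts, had a larger SE. Summing *Actr3* with *Actr3-ps* and rescaling lengths were added after seeing the data.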
